A study of Homo sapiens with 2 samples.

Results

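The BCL2 family genes measured here are 10 genes whose proteins set the threshold for apoptosis at the mitochondrion, and they were chosen by symbol: BCL2, BCL2L1, MCL1, BAX, BAK1, BIK, BCL2L11, BID, BAD and PMAIP1. Each of the 10 symbols matched 1 of the 32738 genes listed in each library. The cells were Nalm-6, an established human line of B-cell precursor acute lymphoblastic leukemia that had been modified to carry an inducible Tet-On construct. In 1 library the construct was the ETV6-RUNX1 fusion, which the source label also calls TEL-AML1, and in the other it was luciferase (LUC control). Both cultures were kept for 24 h in 500 ng/ml doxycycline, so the drug and the Tet-On system are shared by the groups, and both went through bead depletion of dead cells before droplet capture. That depletion acts on dying cells, so values describe the cells that were left. Whether either culture was 1 clone or a pool is not given in the labels, and there was 1 library per construct.

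Apoptosis through the mitochondrion starts when the effector proteins BAX and BAK1 assemble in the outer membrane and release cytochrome c. Survival proteins such as BCL2, BCL-XL (encoded by BCL2L1) and MCL1 hold the effectors in check. BH3-only proteins, here BIK, BIM (BCL2L11), BID, BAD and NOXA (PMAIP1), bind the survival proteins or the effectors and tip the balance toward death. B-cell precursors and the leukemias derived from them are known to depend on this balance, which is also set by phosphorylation, cleavage and protein turnover that mRNA does not show.

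The sequences shown are the 250 bases before a RefSeq start (GRCh38.p14) of each of 2 members that differed between the libraries, BCL2L1 and BAX. RefSeq promoter windows were matched for 8 of the 10 members, in 14 windows. The 2 members not matched were MCL1 and BIK. The capitals mark matches, on either strand, to TGTGGT, a core sequence bound by RUNX proteins, or to CACGTG, the E-box bound by MYC and related factors. CACGTG was added after the BAX window had been seen. The BCL2L1 window lies at chr20:31723964-31724213 on the minus strand, and the BAX window at chr19:48954625-48954874 on the plus strand.
BCL2L1: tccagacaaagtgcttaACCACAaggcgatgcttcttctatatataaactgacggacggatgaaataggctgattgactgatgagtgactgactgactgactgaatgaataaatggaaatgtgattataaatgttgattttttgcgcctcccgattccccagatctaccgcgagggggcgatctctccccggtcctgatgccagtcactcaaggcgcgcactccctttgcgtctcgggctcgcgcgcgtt
BAX: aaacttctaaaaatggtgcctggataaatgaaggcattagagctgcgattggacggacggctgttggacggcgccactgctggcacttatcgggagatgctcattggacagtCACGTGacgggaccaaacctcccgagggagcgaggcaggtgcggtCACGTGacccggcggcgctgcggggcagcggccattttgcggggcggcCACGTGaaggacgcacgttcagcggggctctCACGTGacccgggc
The BCL2L1 window printed, at the first of 2 RefSeq starts of the gene, held 1 RUNX match, which begins 233 bases before the start. The window of the other BCL2L1 start, chr20:31722869-31723118, held 0. It was the only 1 of the 14 member windows with TGTGGT, which was present in 11.0% of 34943 windows of the same length. The BAX window held 4 E-boxes, beginning 138, 93, 45 and 14 bases before the start. E-boxes were present in 3 of the 14 member windows and in 6.32% of all windows, with 4 or more in 5 of 34943. The other 2 member windows with an E-box are at BID, overlap and hold the same site. The 3 windows thus stand for 2 of the 8 matched members, so nothing is read from their share. The cut of 4 is the count of the BAX window itself, so nothing is read from the 5 of 34943 either. A match is a description of the letters and not of binding.

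The ETV6-RUNX1 library gave 2267 kept cells and the LUC control library 1870, where keeping a cell required 1000 or more detected genes and no more than 10% of unique molecular identifiers (UMIs) from mitochondrial genes. Kept cells held a median of 19219 UMIs with ETV6-RUNX1 and 22535.5 UMIs in the control, so the control cells were deeper. The libraries shared 16 cell barcode sequences, of which 7 were kept in both. Of 8 B-cell precursor markers 7 matched a gene name and all 7 were above 10 CPM (counts per 1000000 UMIs) in at least 1 library. Their summed level was 2791 CPM with ETV6-RUNX1 and 3873 CPM in the control. None of the markers of other cell types reached 10 CPM. Those at 0 in both libraries were 3 of 7 for T and NK cells, 4 of 8 for myeloid cells, 7 of 8 for the erythroid and megakaryocyte list, 1 of 6 for mature B and plasma cells and 5 of 7 for the epithelial and fibroblast list. The summed level of each of these lists was at most 7.51 CPM. A gene's CPM is its UMIs summed over the kept cells of a library, scaled to the summed UMIs of all genes. A UMI stands for 1 captured poly-A transcript, so CPM is not scaled by gene length and levels of different genes are compared as captured transcripts only. Intervals in brackets are exact 95% intervals for counting error alone. They leave out differences between cells and between cultures, and no difference between the libraries has a replicate check.

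Among the 10 members, NOXA and BID transcripts were the most abundant and BIM transcripts the least, in both libraries. PMAIP1 was at 106.7 CPM (103.7 to 109.8) with ETV6-RUNX1 and 108.8 CPM (105.7 to 111.9) in the control. BID was at 101.0 and 105.1 CPM. BAX followed at 60.3 and 72.1 CPM and BAD at 50.2 and 48.6 CPM. The remaining 6 members lay between 7.34 and 22.9 CPM. MCL1 was the highest of the 3 survival members and ranked 5 of 10 in each library. Neighbours in this order differed beyond their counting intervals in the ETV6-RUNX1 library. In the control library 3 neighbouring pairs did not: PMAIP1 and BID, BCL2L1 and BAK1, and BAK1 and BCL2. BCL2L1 and BIK exchanged places, with BCL2L1 above BIK with ETV6-RUNX1 and below it in the control. About 6% of detected genes were above PMAIP1 (5.73% and 5.92%), and 37.4% and 39.6% were above BCL2L11.

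**Figure D1:**
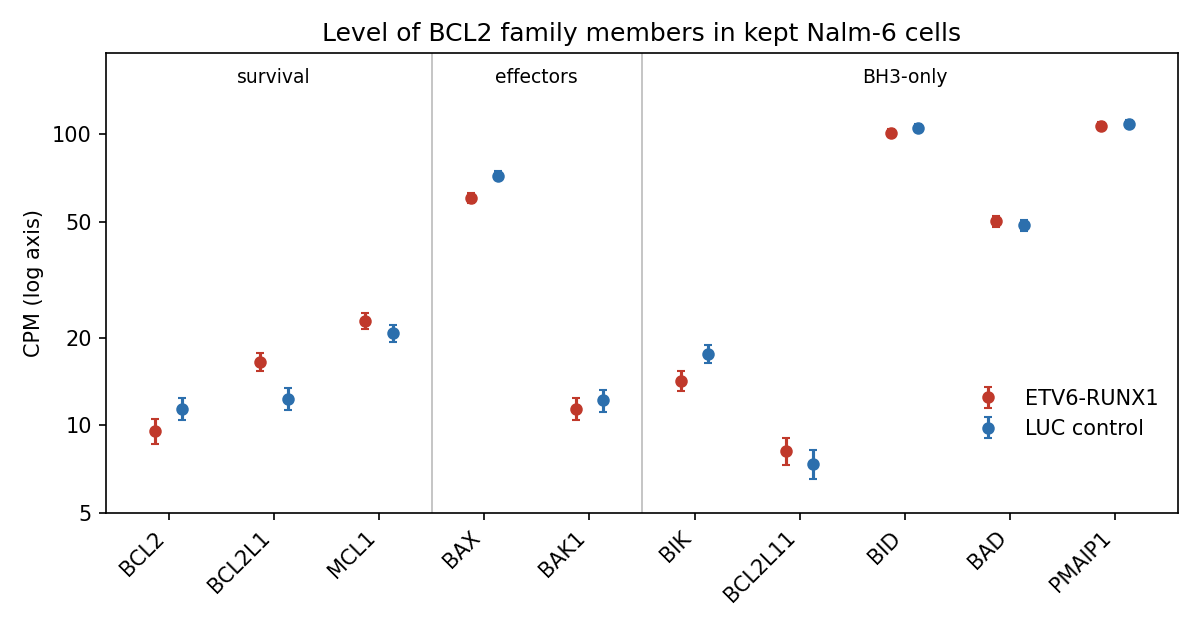
Level of each member in CPM on a log axis, in the ETV6-RUNX1 library (red) and the LUC control library (blue), grouped by role; bars are 95% counting intervals. PMAIP1 and BID lie above 100 CPM in both libraries, while the 3 survival members lie between 9.56 and 22.9 CPM.

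The comparison of the libraries asks whether induced ETV6-RUNX1 goes with another setting of this family than induced luciferase. None of the 9 members measured at 10 CPM or more differed by 1.5-fold, the size used here, in either direction. Of all 5954 genes measured at that level, 0.185% were higher by that size with ETV6-RUNX1 and 0.655% were lower. The median log2 ratio of the 9 members was -0.06, next to -0.04 over all measured genes, with 3 members above 0 and 6 below. BCL2L11 was under the floor of 10 CPM in both libraries and is given by its values alone.

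Of the survival genes, BCL2L1 was higher, MCL1 slightly higher and BCL2 lower with ETV6-RUNX1. BCL2L1, which encodes BCL-XL and whose window with the RUNX match is printed, stood at 16.5 CPM (15.3 to 17.8) with the fusion and at 12.3 CPM (11.3 to 13.4) with luciferase. These intervals do not overlap, and the ratio of 1.34-fold (log2 0.42, 0.26 to 0.59) was the largest among the measured members. Of 5954 measured genes, 2.35% lay at least as far from equal levels in either direction. The gene also gives a shorter splice form that promotes death, and counts of transcript ends do not separate the forms. MCL1, a short-lived survival protein, was at 22.9 and 20.7 CPM (log2 ratio 0.15, 0.01 to 0.28). BCL2 was at 9.56 CPM (8.67 to 10.5) with ETV6-RUNX1, against 11.4 CPM (10.4 to 12.5) in the control, with intervals that just overlap (log2 ratio -0.26, -0.45 to -0.06). BCL2L1 transcripts were 1.73 times as many as BCL2 transcripts (1.53 to 1.95) in the fusion library and 1.08 times (0.951 to 1.22) in the control. The pairs of members set against each other were chosen after their values had been seen.

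Of the effector genes, BAX was lower with ETV6-RUNX1. It stood at 60.3 CPM (58.0 to 62.6) against 72.1 CPM (69.6 to 74.7), a log2 ratio of -0.26 (-0.33 to -0.18). BAK1, the other effector, was at 11.4 and 12.2 CPM with overlapping intervals (log2 ratio -0.10, -0.28 to 0.08). BAX transcripts outnumbered BAK1 transcripts 5.30-fold and 5.92-fold. With BCL2L1 higher and BAX lower, there were 3.65 BAX UMIs (3.36 to 3.97) for each BCL2L1 UMI with ETV6-RUNX1, against 5.86 (5.34 to 6.44) in the control. The log2 difference of this ratio between the libraries was 0.68 (0.50 to 0.86) in favour of BCL2L1. This pair was also chosen with its values known, and the difference restates the separate ratios of BCL2L1 and BAX. No share over pairs of all genes was computed, so its size is not read as a further result. BAX per BCL2 was alike, at 6.30 and 6.32 UMIs, with a log2 difference of 0.002 (-0.20 to 0.21). Of the GENCODE 29 genes that overlap a member and are listed in the libraries under the same name, GPR137, on the other strand from BAD, had 507 and 453 UMIs. ADAMTSL4-AS1 at MCL1 and GGNBP1 at BAK1 had at most 2. BAX, BIK and PMAIP1 overlap no gene of that annotation, and BAK1 has 2 annotated pseudogenes between which reads could be split.

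Of the BH3-only genes, BIK was lower with ETV6-RUNX1 and the others differed little. BIK, whose product acts from the endoplasmic reticulum, was at 14.2 CPM (13.1 to 15.4) against 17.6 CPM (16.4 to 18.9), a log2 ratio of -0.31 (-0.46 to -0.15). The intervals do not overlap. BID, which links death receptors to mitochondria after cleavage by caspase-8, had a log2 ratio of -0.06 (-0.12 to 0.002). BAD, which is held inactive by growth factor signalling, was at 0.05 (-0.04 to 0.13) on the log2 scale. PMAIP1, a stress-induced gene whose product binds MCL1, was at -0.03 (-0.09 to 0.03), and its sign turned under 3 other scalings (0.01 to 0.02). BCL2L11 was at 8.15 and 7.34 CPM (log2 ratio 0.15, -0.07 to 0.37). There were 4.66 PMAIP1 UMIs (4.35 to 4.99) for each MCL1 UMI with ETV6-RUNX1, against 5.26 (4.89 to 5.65) in the control.

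The depth of the cells differed between the libraries, and so members whose level moves with depth were looked at in cells of like depth. In both libraries BCL2L1 made up less of the UMIs in deep cells than in shallow ones. With cells split by depth into 3 equal classes, from the shallowest to the deepest class it went from 21.4 to 14.9 CPM with ETV6-RUNX1 and from 16.1 to 10.0 CPM in the control. BCL2 went the other way, from 7.72 to 11.2 CPM and from 9.08 to 13.4 CPM. BAX had log2 ratios of the deepest over the shallowest class of -0.26 and -0.21, and PMAIP1 of -0.37 and -0.13. By 1.5-fold, 1 of 9 measured members (BCL2L1, in the control) was lower in the deepest class and 0 were higher. Over all measured genes 1.16% with ETV6-RUNX1 and 1.09% in the control were higher by that size, while 1.49% and 0.957% were lower.

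With cells sorted into 6 bins of UMIs per cell shared by the libraries, and the bins given equal weight, BCL2L1 had a log2 ratio of 0.28, under the 0.42 of all cells. It was higher with ETV6-RUNX1 in 6 of 6 bins, with an interval above 0 in 2. BAX was lower with ETV6-RUNX1 in 6 of 6 bins, with an interval below 0 in 5, and its log2 ratio was -0.29. BIK was lower in 6 of 6 bins, with an interval below 0 in 2, at a log2 ratio of -0.37. BCL2 was lower in 5 of 6 bins, in none of them beyond the interval, at -0.21. In cells thinned to 8700 UMIs each, the BCL2 log2 ratio was -0.02, and those of BCL2L1, BAX and BIK were 0.28, -0.22 and -0.26. The BCL2 ratio was thus near 0 in thinned cells but not in depth-matched cells. Thinning was 1 random draw that keeps fewer UMIs, and no interval was computed for its ratios. Whether depth sets the BCL2 difference was not tested. The signs of BCL2L1, BAX and BIK in thinned cells were as in all cells.

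**Figure D2:**
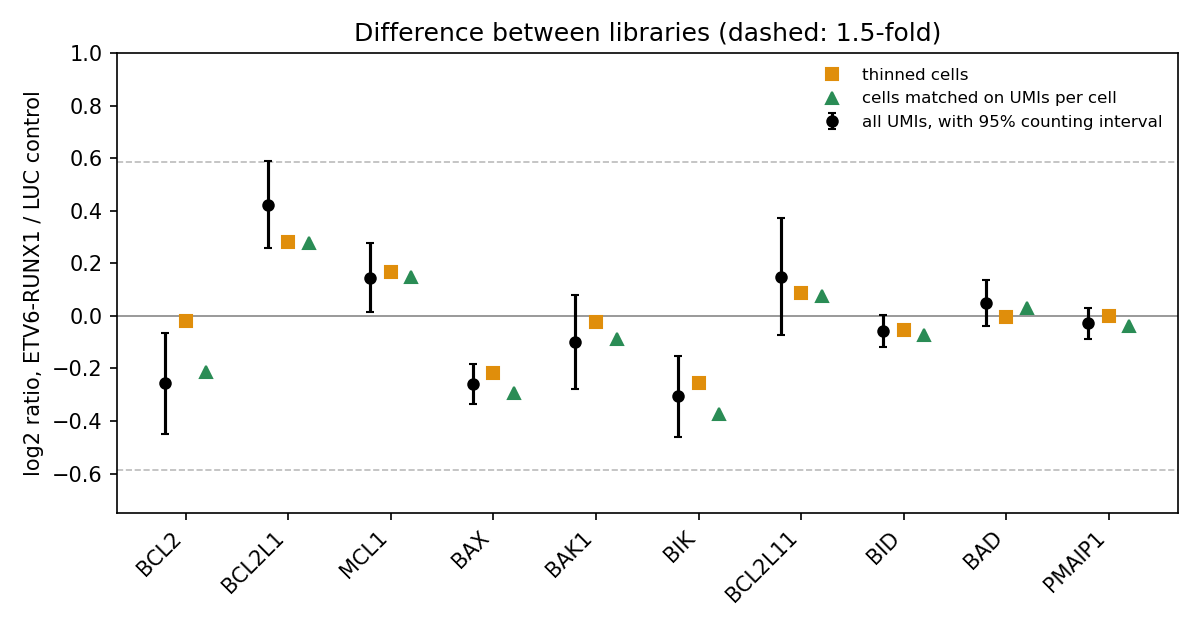
Log2 ratio of ETV6-RUNX1 over LUC control for each member: all UMIs with the 95% counting interval (black), cells thinned to 8700 UMIs (orange squares) and cells matched on UMIs per cell (green triangles); dashed lines mark 1.5-fold. No point reaches a dashed line, and BCL2 lies at -0.02 in thinned cells, -0.21 in matched cells and -0.26 in all cells.

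**Figure D3:**
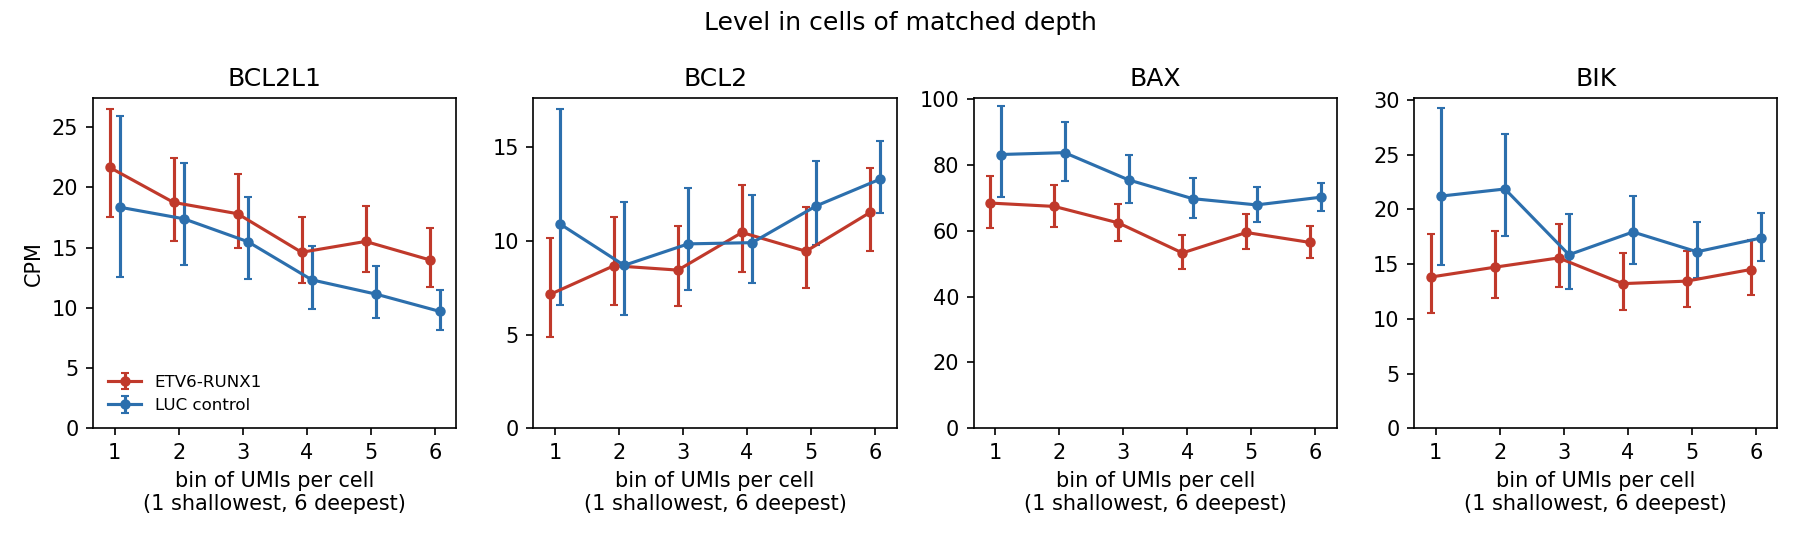
CPM of BCL2L1, BCL2, BAX and BIK in 6 bins of UMIs per cell shared by the libraries, with 95% counting intervals; red is ETV6-RUNX1 and blue LUC control. BAX and BIK are lower with ETV6-RUNX1 in 6 of 6 bins and BCL2L1 is higher in 6 of 6, while the level of BCL2L1 is lower toward deeper cells in both libraries.

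Transcripts of death-promoting members outnumbered those of survival members in both libraries. Of 17616 member UMIs with ETV6-RUNX1, a share of 12.2% (11.7 to 12.7) came from the 3 survival genes, 17.9% from the 2 effectors and 69.9% from the 5 BH3-only genes. Of 17792 member UMIs in the control, the shares were 10.7% (10.2 to 11.1), 20.3% and 69.1%. The survival share was higher and the effector share lower with ETV6-RUNX1, with intervals that do not overlap. As levels, survival genes summed to 49.0 and 44.4 CPM (log2 ratio 0.14, 0.05 to 0.23), and effectors to 71.6 and 84.3 CPM (-0.23, -0.30 to -0.16). BH3-only genes summed to 280.3 and 287.4 CPM (-0.04, -0.07 to 0.00009). PMAIP1 and BID alone made up 51.8% and 51.4% of the member UMIs. Without these 2 genes the survival share was 25.3% (24.4 to 26.3) in the fusion library against 22.0% (21.1 to 22.9). Transcript shares say nothing of protein shares, since the proteins of this family differ in stability.

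In single cells the survival genes were sparse. In cells thinned to 8700 UMIs, which left out 224 shallower cells with ETV6-RUNX1 and 84 in the control, 65.5% (63.4 to 67.6) and 68.9% (66.7 to 71.0) of cells had no UMI of any survival gene. The mean was 0.429 and 0.384 survival UMIs per cell, and the median number of death-member UMIs was 3 in each library. A BCL2L1 UMI was found in 13.2% (11.7 to 14.7) and 11.3% (9.83 to 12.8) of thinned cells, and in 25.8% and 23.4% of cells without thinning. For BAX the shares were 40.1% (38.0 to 42.3) and 44.4% (42.1 to 46.7) in thinned cells and 63.0% and 72.0% without. BIK was found in 11.1% (9.78 to 12.6) and 13.5% (12.0 to 15.2) of thinned cells, and in 21.7% and 29.3% without. PMAIP1 was found in 57.9% and 59.2% of thinned cells, and in 78.9% and 84.2% without. No cell type that lacks these genes was present to show how many UMIs free RNA adds, so a share of cells with a UMI is not a share of cells that express the gene.

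Spread between cells beyond counting was small for most members. The Fano factor, the variance over the mean of UMIs per thinned cell, is 1 for counting noise alone. It was highest for PMAIP1 (1.24 and 1.20) and BAX (1.14 and 1.18) and lay between 0.978 and 1.10 for the other members. Among genes of a similar mean, 9.79% and 10.9% had a higher value than PMAIP1, and 14.6% and 8.98% a higher value than BAX. By that share BIK (7.38%) and BCL2 (7.84%) lay further out with ETV6-RUNX1, while in the control the shares were 49.9% and 13.2%. Over the 45 pairs of members, Pearson's r across cells lay between -0.052 and 0.033 in 2043 ETV6-RUNX1 cells and between -0.044 and 0.050 in 1786 control cells. In counts this sparse such values are no finding.

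Cell-cycle dependence was described in cells called G1, S or G2/M from the expression of S-phase and G2/M gene lists, which hold 0 of the 10 members. With ETV6-RUNX1, 19.7% of thinned cells were called G1, 33.9% S and 46.4% G2/M. In the control these shares were 15.8%, 38.3% and 45.9%. Of these cells 19.2% and 18.7% lay within 0.05 of the score cut. Cells called G1 held fewer UMIs, a median of 16997 and 18862, than cells called G2/M, with 22406 and 25685.5. Depth therefore moves with phase here, and its part in the phase ratios below was not tested beyond the thinned counts given. In the ETV6-RUNX1 library 0 of 9 measured members differed by 1.5-fold between any 2 phases. In that library 6.0% of all measured genes were higher by that size in S than in G1 and 7.1% in G2/M than in G1, and 0.773% and 0.722% were lower. In the control, BCL2 alone was at least 1.5-fold higher in S and in G2/M than in G1, and 0 were lower. The shares over all genes there were 5.48% and 5.66% higher, and 0.453% and 0.537% lower. Between G2/M and S, 0 members differed by that size in either library, next to 1.73% (ETV6-RUNX1) and 1.41% (control) of all genes higher in G2/M and 0.655% and 0.722% lower.

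BCL2 and PMAIP1 were lower in cells called G1 than in cells called S or G2/M. For BCL2 with ETV6-RUNX1 the intervals of both ratios hold 0 (log2 ratio of S over G1 0.36, -0.11 to 0.84). In the control neither does. BCL2 was at 5.27, 11.0 and 13.2 CPM in G1, S and G2/M of the control, and at 7.62, 9.77 and 10.3 CPM with ETV6-RUNX1. The G1 values rest on 29 and 54 UMIs. The log2 ratio of G2/M over G1 was 1.32 (0.77 to 1.92) in the control and 0.43 (-0.00038 to 0.89) with ETV6-RUNX1, and in thinned counts it was 1.61 and 0.49. With phase scores over all genes the ratio in the control was 0.91. The 2 ratios differed by -0.89 (-1.58 to -0.19). PMAIP1 was at 85.0, 112.1 and 108.3 CPM in G1, S and G2/M with ETV6-RUNX1, and at 96.8, 108.2 and 111.9 CPM in the control. Its log2 ratio of S over G1 was 0.40 (0.26 to 0.54) and 0.16 (0.02 to 0.30), and of G2/M over G1 0.35 (0.22 to 0.48) and 0.21 (0.07 to 0.35). MCL1 was also lowest in G1 in each library, at 19.9 and 17.6 CPM, with log2 ratios of G2/M over G1 of 0.20 (-0.07 to 0.48) and 0.33 (0.02 to 0.66).

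BAX differed by phase in the ETV6-RUNX1 library and not detectably in the control. With ETV6-RUNX1 it was at 71.4 CPM in G1, 56.3 CPM in S and 58.6 CPM in G2/M. In the control it was at 71.8, 70.8 and 72.4 CPM. The libraries were thus alike in G1 (log2 ratio -0.01, -0.20 to 0.18) and differed in S (-0.33, -0.47 to -0.20) and in G2/M (-0.31, -0.41 to -0.20). The log2 ratio of S over G1 was lower by 0.32 with ETV6-RUNX1 (difference -0.32, -0.56 to -0.09). In the control the intervals of both ratios hold 0, at -0.02 (-0.19 to 0.15) for S over G1 and 0.01 (-0.15 to 0.17) for G2/M over G1. As UMIs per cell, which rise with the depth of the cells, BAX in the ETV6-RUNX1 library was at 1.26 in G1, 1.10 in S and 1.35 in G2/M, so the direction of G2/M over G1 turns on that scale.

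Of the remaining members, BCL2L11 and BID differed between phases in the control beyond counting error. BCL2L1 was nearly level with ETV6-RUNX1, at 16.4, 15.8 and 16.4 CPM in G1, S and G2/M, and lay at 10.9, 13.1 and 12.0 CPM in the control. It was higher with ETV6-RUNX1 in each phase, by 0.59 (0.12 to 1.06) on the log2 scale in G1, 0.27 (-0.02 to 0.56) in S and 0.45 (0.22 to 0.69) in G2/M. The G1 value just passes 1.5-fold, so that 1 of 9 measured members was higher by this size within G1, and 0 were lower. Of all measured genes 0.857% were higher and 1.97% lower in G1. Within S and G2/M 0 members passed, next to 0.386% and 0.202% of genes higher and 1.33% and 0.521% lower. BIK was lower with ETV6-RUNX1 in each phase, by log2 values of -0.11 (-0.51 to 0.30), -0.44 (-0.72 to -0.17) and -0.29 (-0.51 to -0.06). BID was lower in G2/M than in G1 in the control (log2 ratio -0.19, -0.32 to -0.06) and not with ETV6-RUNX1 (0.07, -0.05 to 0.20). BAK1 and BAD had log2 ratios between phases from -0.24 to 0.19, each with an interval that holds 0. BCL2L11 was at 10.7, 6.85 and 6.81 CPM in G1, S and G2/M of the control and at 7.76, 8.43 and 8.05 CPM with ETV6-RUNX1, from 55 to 176 UMIs each. In the control its log2 ratio was -0.65 (-1.12 to -0.16) for S over G1 and -0.66 (-1.10 to -0.19) for G2/M over G1, both past 1.5-fold, and it is not in the counts of measured members because it is under the floor. With ETV6-RUNX1 these ratios were 0.12 (-0.36 to 0.61) and 0.05 (-0.39 to 0.52).

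**Figure D4:**
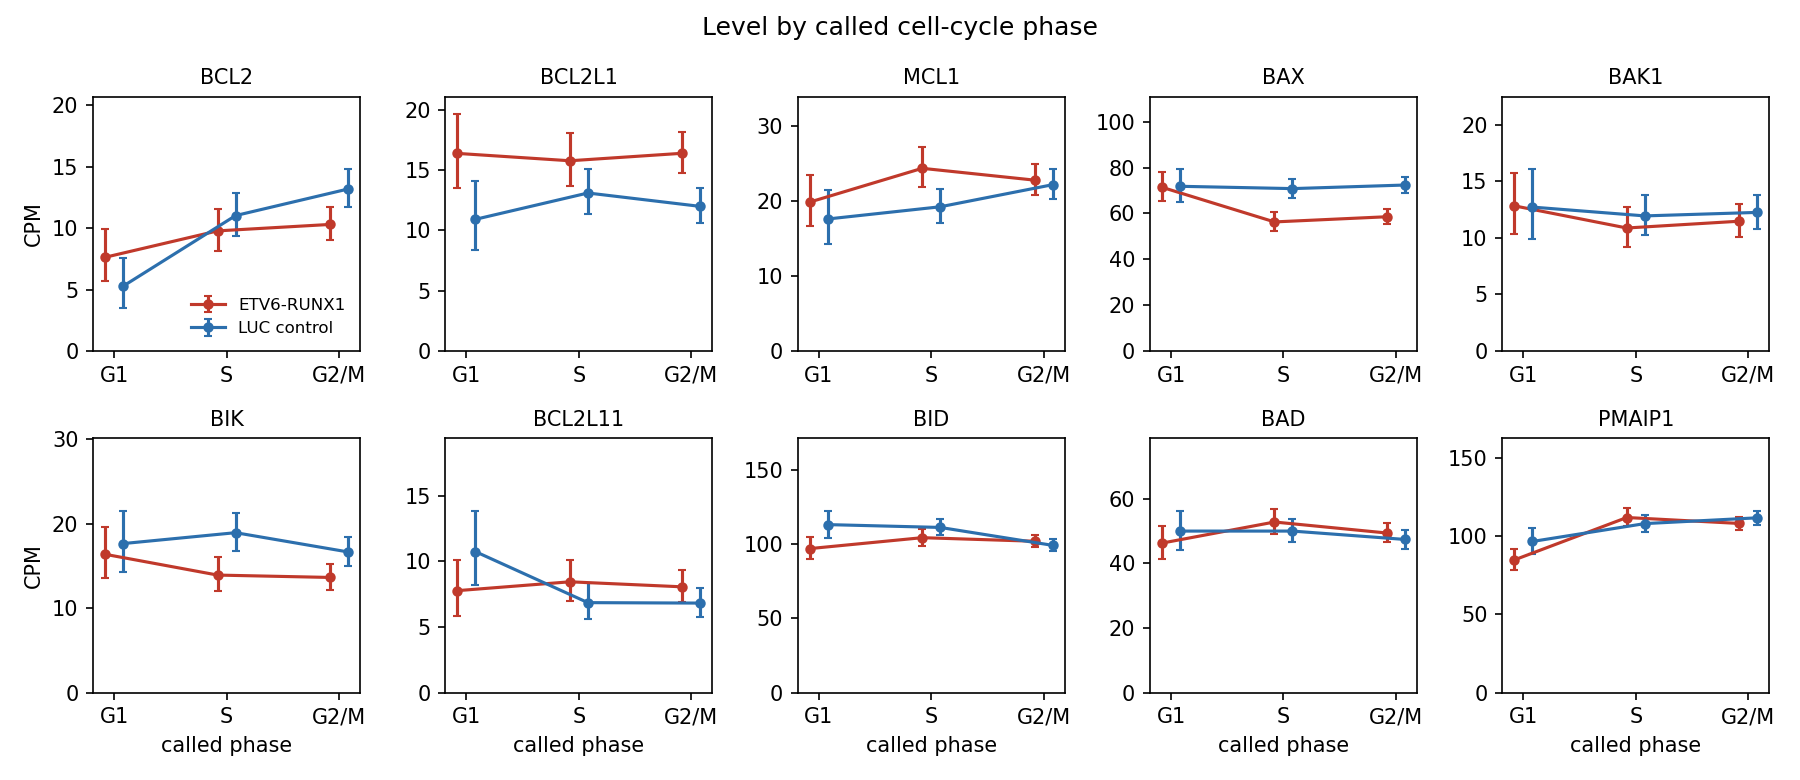
CPM of each member in cells called G1, S and G2/M, with 95% counting intervals, for ETV6-RUNX1 (red) and LUC control (blue). BCL2 and PMAIP1 are lowest in G1 in both libraries, and BAX is at 71.4 and 71.8 CPM in G1 but at 56.3 and 70.8 CPM in S.

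The survival share of member UMIs was lowest in cells called G1. In the control it was 8.32% (7.21 to 9.54) in G1, 10.3% (9.55 to 11.1) in S and 11.4% (10.8 to 12.1) in G2/M. With ETV6-RUNX1 it was 11.5% (10.4 to 12.8), 12.2% (11.4 to 13.1) and 12.4% (11.7 to 13.1), and these intervals overlap. There were 11.0 death-member UMIs for each survival UMI in G1 of the control and 7.67 in G1 with ETV6-RUNX1. In G2/M the numbers were 7.74 and 7.10.

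**Figure D5:**
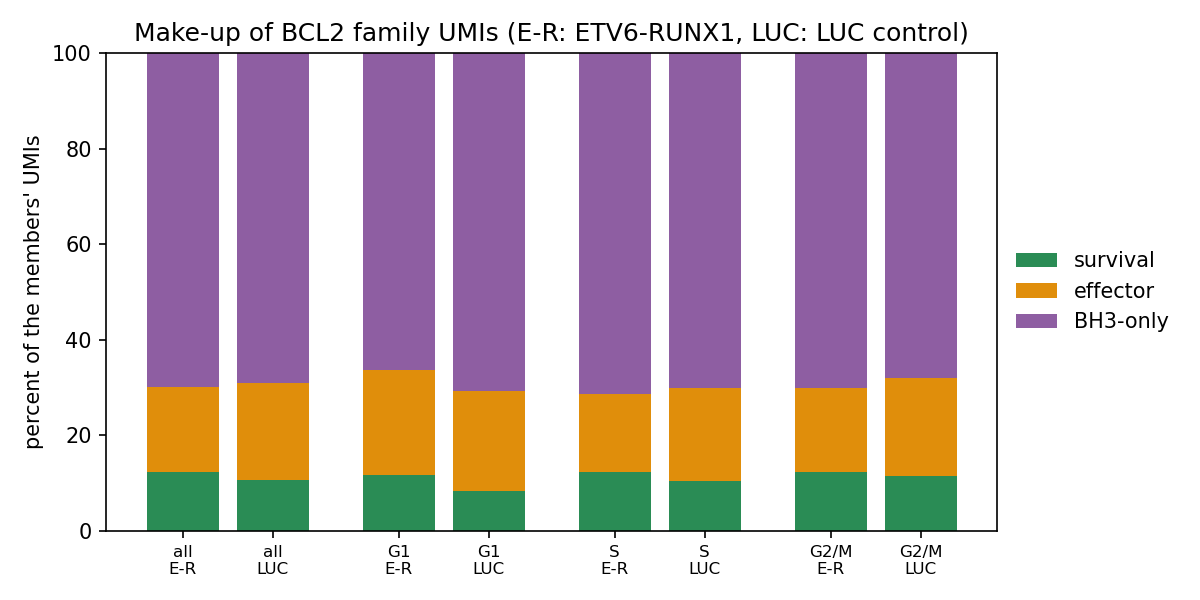
Percent of the members' UMIs from survival genes (green), effectors (orange) and BH3-only genes (purple), over all kept cells and by called phase, in each library. The survival share is 12.2% with ETV6-RUNX1 and 10.7% in the control over all cells, and 11.5% and 8.32% in G1.

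Other genes of the pathway were described from 5 lists. Of the measured members of the lists, 0 of 4 other BCL2 family genes, 0 of 12 caspase and apoptosome genes, 0 of 6 genes of inhibitor of apoptosis (IAP) proteins and related inhibitors, 0 of 4 death receptor genes and 0 of 16 regulators of the family were 1.5-fold different between the libraries in either direction. Their median log2 ratios were -0.06, -0.08, -0.03, -0.05 and 0.03. Cytochrome c (CYCS), the protein that BAX and BAK1 release, was at 504.7 CPM with ETV6-RUNX1 and 565.3 CPM in the control (log2 ratio -0.16, -0.19 to -0.14). DAD1, a subunit of the oligosaccharyltransferase, was at 187.3 and 220.0 CPM (-0.23, -0.27 to -0.19). The mitochondrial proteins ENDOG and AIFM1, which are released during death, were at -0.13 and -0.12, and BNIP3 was at -0.13 (-0.22 to -0.04). Among regulators, MYC was lower (-0.38, -0.43 to -0.32), and FOXO1 (0.35, 0.21 to 0.48) and E2F1 (0.30, 0.22 to 0.38) were higher. FOXO factors are known activators of BCL2L11. TRAF3 (-0.19), BIRC6 (0.11), BNIP3L (0.10), BCL2L12 (-0.10), DAXX (-0.08), BAG1 (-0.04) and TRAF2 (-0.01) were the other genes named for the largest ratios of their lists.

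By phase, the gene of the lists with the largest difference was BIRC5, which encodes survivin, with log2 ratios of G2/M over G1 of 1.78 and 1.59. BIRC5 is itself 1 of the G2/M genes used to call phases, so this value is no finding. BCL2L12 had log2 ratios of 0.73 with ETV6-RUNX1 and 0.53 in the control, and ATF4, the factor of the integrated stress response, of 0.56 and 0.51. CASP2 was at 0.40 and 0.44, E2F1 at 0.55 and 0.18, and TRAF2 at 0.19 and 0.73. FADD was at 0.24 and 0.22 and BNIP3L at 0.27 and 0.04. BAG1, whose product binds BCL2, was lower in G2/M in both libraries (-0.29 and -0.30).

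The patterns most like those of the abundant members were looked for over 12 pools, 6 bins of cells along the cycle in each library, among 2841 other genes at 30 CPM or more in both libraries. The measure was Pearson's r of log2(CPM + 1). It was taken over the pools of both libraries together, so it holds differences in level between the libraries as well as the pattern along the cycle. Pools of a library share its preparation, and the highest of so many values is high by selection. For PMAIP1 the nearest genes were HNRNPAB (0.918), PHF5A (0.904) and RNPS1 (0.890). For BAX they were WDR61 (0.890), PSMC4 (0.843) and COMMD9 (0.825), and for BID they were GSTP1 (0.865), PSMA7 (0.815) and PSMD6 (0.811). For BAD they were ARL3 (0.826), GGNBP2 (0.804) and GPANK1 (0.789). PMAIP1 had 48 genes above 0.8, and BAX, BID and BAD had 5, 3 and 2.

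The barcodes left out by the cell filter carried few member UMIs, at most 29 for a member with ETV6-RUNX1 and 34 in the control. Scaled to non-mitochondrial UMIs, 1 of 9 measured members with ETV6-RUNX1 (MCL1) was 1.5-fold higher there than in kept cells and 2 (BAK1 and BIK) were lower. In the control 3 (BCL2, MCL1 and BAK1) were higher and 0 lower. Of 5941 genes, 42.0% and 38.0% were higher by this size and 13.1% and 11.7% lower. The control's 3 of 9 higher is near its background share, and nothing is read from the other counts, which rest on few UMIs.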

How the data were processed

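The authors deposited, for each library, UMI counts of every gene in every barcode, not normalized, made with Cell Ranger 3.0.2 on hg19 per the submitters' processing notes. The handling of reads shared by overlapping or near-identical genes was not stated there. The members and gene lists were chosen with earlier results of these data known. All 10 members are named, and from each wider list up to 3 measured genes with the largest ratio between libraries and up to 2 with the largest ratio of G2/M over G1. A gene that this rule names is not reported here. Measured means 10 CPM or more in at least 1 library.

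Ratios carry the exact 95% interval of a ratio of 2 Poisson counts, and shares the Clopper-Pearson interval (scipy 1.17.1). Intervals of differences between ratios use a normal approximation on the log scale. Intervals and shares cover counting error only, and with 1 library per construct no test was made. Phases came from cell-cycle scoring in scanpy 1.11.5 on cells thinned to 8700 UMIs, over genes found in at least 3 cells. Doublets were left in (Scrublet called 14 and 16 cells, or 0.618% and 0.856%, at an expected rate of 0.05). Scaling alternatives used edgeR 4.0.16 (TMM) and DESeq2 1.42.0 (median of ratios). The calculation of ratio intervals and thinning was tested on simulated Poisson counts. These hold no spread between cells beyond counting, so the check covers the calculation only. Promoter windows and genes overlapping the members came from annotations of GRCh38, so no coordinates are given on hg19.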

Additional observations from a re-analysis of the deposited data

Results flagged for a closer look

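Members whose ratio between phases had opposite signs in the libraries, with a counting interval of the difference that excludes 0, were BCL2L11, BAX, BID and MCL1. For each of these ratios the interval in at least 1 library holds 0, so opposite directions are not shown. The share of all genes that meet this rule was not computed, so the number of members is not read as a result. The differences were not tested, since there is 1 library per construct. The difference of the log2 ratios, ETV6-RUNX1 minus LUC control, was 0.77 (0.11 to 1.42) for BCL2L11 in S over G1 and 0.71 (0.09 to 1.32) in G2/M over G1. It was -0.30 (-0.51 to -0.08) for BAX and 0.26 (0.08 to 0.44) for BID in G2/M over G1, and -0.30 (-0.59 to -0.01) for MCL1 in G2/M over S.

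The barcodes that the cell filter left out, 236 with ETV6-RUNX1 and 333 in the control, are outside the comparisons above and held a median of 79.5% and 88.5% mitochondrial UMIs. Scaled to non-mitochondrial UMIs, 3 members were at least 1.5-fold higher in those barcodes than in kept cells of the control library with an interval above 0. BCL2 had a log2 ratio of 1.48 (0.41 to 2.37) from 10 UMIs, BAK1 of 1.24 (0.10 to 2.17) from 9 UMIs and MCL1 of 1.00 (0.09 to 1.78) from 13 UMIs. In the ETV6-RUNX1 library MCL1 was at 0.73 (-0.49 to 1.71), BCL2, with 3 UMIs, at 0.57 (-1.71 to 2.13) and BAK1, with 1 UMI, at -1.27 (-6.57 to 1.22). Over all measured genes, 38.0% in the control and 42.0% with ETV6-RUNX1 were at least 1.5-fold higher in the barcodes left out. These shares count size alone. The share of genes that also have an interval above 0 was not computed, so the count of 3 members is not read as a result.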

How the results depend on the processing

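No paired analysis was possible because there is 1 library per construct and the labels carry no replicate numbers. The depth-matched values, the phase scores over all genes and the thinned phase counts were chosen after seeing the data. Over 13 alternatives the log2 ratios of BCL2L1 (0.27 to 0.59), MCL1 (0.04 to 0.34), BAX (-0.33 to -0.01) and BIK (-0.44 to -0.11) kept their sign. BCL2 kept it in 12 of 13 (-0.36 to 0.53, above 0 in G1 cells), BAK1 and BID in 12, BCL2L11 and BAD in 11 and PMAIP1 in 8. The count of members at 1.5-fold was 0 and became 1 in G1 cells (BCL2L1) and 1 at the smaller size tried (BCL2L1). The survival share of 12.2% with ETV6-RUNX1 was 11.5% in G1 cells. That of 10.7% in the control was 10.0% with phases matched, 8.32% in G1 cells and 11.4% in G2/M cells. For S over G1 with ETV6-RUNX1 the count of 0 members became 3 at the smaller size and 1 with phases from unthinned cells. For G2/M over G1 it was 0 with ETV6-RUNX1 and 2 at the smaller size, 1 with phases from unthinned cells, 3 as UMIs per cell and 1 with scores over all genes. In the control it was 1, 2 at the smaller size and 4 as UMIs per cell. The shares of all genes that pass with these other sizes, phase calls and scales were not computed. These phase counts are therefore not read as a result about the members. A smaller size passes more genes by its construction. Mean UMIs per cell were 1.31-fold (ETV6-RUNX1) and 1.37-fold (control) as high in G2/M as in G1. On the scale of UMIs per cell the G2/M over G1 ratio of every gene is multiplied by that factor. The cause of the remaining changes was not tested. BCL2, BAK1, BIK, BCL2L1 and BCL2L11 had at most 116 UMIs each in cells called G1 of either library, so phase differences of these genes are set by few molecules.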

Other observations

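Of the BH3-only genes outside the 10 members, BBC3 and HRK were below 10 CPM in both libraries and are named after their values were seen. BBC3, which encodes PUMA, was at 6.53 CPM with ETV6-RUNX1 and 7.53 CPM in the control (log2 ratio -0.21, -0.44 to 0.03). HRK was at 8.22 and 6.15 CPM (0.42, 0.18 to 0.65). BBC3 was highest in cells called G1 and HRK lowest in cells called G2/M, in both libraries. BBC3 was at 10.6 CPM in G1, 6.21 CPM in S and 5.21 CPM in G2/M with ETV6-RUNX1, and at 14.7, 7.32 and 5.85 CPM in the control. HRK was at 11.0, 9.84 and 5.67 CPM with ETV6-RUNX1 and at 7.64, 8.12 and 4.44 CPM in the control. For BBC3 the log2 ratio of G2/M over G1 was -1.02 (-1.45 to -0.58) and -1.33 (-1.74 to -0.91), opposite in sign to that of PMAIP1 and BCL2, and for HRK it was -0.96 (-1.38 to -0.53) and -0.78 (-1.32 to -0.23). The other family genes were spread over a wide range: BCL2L13 had 611 and 602 UMIs and BCL2L2, a survival gene, 82 and 107. BCL2A1, BCL2L10, BMF and BCL2L14 had at most 7 UMIs in either library, BCL2L15 had 13 and 8, and BOK had 0 UMIs in both, which allows up to 0.0683 and 0.0702 CPM.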
